A study of Homo sapiens with 6 samples.

Results

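The regions described here are the NME2 peaks that lie within 5 Mb of an end of a human autosome. NME2 occupancy was measured by chromatin immunoprecipitation followed by sequencing (ChIP-seq), which recovers the DNA fixed to a protein, in A549 cells, a line derived from a lung carcinoma. A peak is a stretch of genome with more reads from the NME2 precipitate than from the control precipitate. The coordinates were those of the human assembly hg18. The end of a chromosome was taken as the largest coordinate of any peak on it in either list, and a peak belonged to the set when it started below 5 Mb or ended above the chromosome end minus 5 Mb. The starts of chromosomes 13, 14, 15, 21 and 22 were left out, which gave 39 ends on 22 autosomes. By this rule 340 of the 2413 autosomal peaks before inducing NME2 and 1145 of the 10901 autosomal peaks after inducing NME2 were near an end, 1485 of the 14086 peaks in both lists on all chromosomes.

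Before induction, A549 cells were not transfected and NME2 was precipitated with the antibody anti-nm23-h2 (L-16). After induction, cells had been transfected with the plasmid pcDNA3-NME2, which makes NME2 with a myc tag, and the tag was precipitated with the anti-c-Myc monoclonal clone 9E10. The precipitation followed transfection by 48 h. For each condition there were 2 NME2 libraries and 1 made with a control immunoglobulin (IgG), labelled mouse before and goat after induction. The sources describe 1 plate of cells per condition, so the 2 libraries of a condition may be technical repeats. The protocol in the labels also names the empty myc-tagged vector as a control, whereas the samples before induction are labelled as not transfected. The plasmid adds tagged protein to cells that already make NME2, and the antibody changes with the condition, so that induction and antibody cannot be told apart in any comparison of the lists. Each condition has 1 list of peaks, with no score, no read number and no column per replicate, and the depth behind a peak is unknown.

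NME2, also known as NM23-H2, is a nucleoside diphosphate kinase and a metastasis suppressor that also binds DNA, and it was first linked to gene control through a G-rich element upstream of MYC. Chromosome ends carry telomere repeats, next to which lie subtelomeric blocks that are shared in near-identical copies between different chromosomes, and then a zone that in many human chromosomes is rich in genes and in G and C.

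NME2 peaks were denser near the ends than in the rest of the same chromosomes, both before and after inducing NME2. Before induction, there were 1.74 peaks per Mb near ends and 0.801 per Mb in the rest, a ratio of 2.18 (95% interval 1.94 to 2.44). After induction, the values were 5.87 and 3.77 peaks per Mb, a ratio of 1.56 (1.46 to 1.66). The near-end zone made up 7.01% of the length considered, 195 Mb of sequence against 2588.51 Mb in the rest. The intervals are exact and, like all intervals given here, cover the counting of peaks only. When the longest stretch without peaks was taken out of the length of each chromosome, the ratios were 2.08 and 1.49.

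The excess was spread over chromosomes. Near-end density was above that of the rest on 20 of 22 autosomes before induction, the exceptions being chromosome 16 with a ratio of 0.974 and chromosome 19 with 0.819. After induction it was above that of the rest on 21 of 22, the exception again being chromosome 19, with a ratio of 0.965. The median of the ratios within chromosomes was 2.14 before and 1.49 after induction. The highest ratio before induction was 3.79, on chromosome 11, where 25 of 107 peaks lay near an end, and the highest after induction was 2.16, on chromosome 21, where 45 of 179 did.

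Ends held a larger part of the peaks before induction than after it. Near-end peaks were 14.1% of the autosomal list before (Wilson 95% interval 12.8 to 15.5) and 10.5% after inducing NME2 (9.94 to 11.1). The odds ratio, before over after, was 1.40 (1.22 to 1.59). The near-end share was higher before induction on 17 of 22 autosomes and higher after induction on 5. Seen the other way, the number of peaks was 3.37 times as large after induction near ends and 4.71 times as large in the rest. With 1 list per condition these values describe the 2 lists, their intervals take peaks as units, and the difference between conditions has no replicate test, which holds for every value set between the lists below. The lists carry a running number whose meaning the sources do not give. In the first 50% of each list by that number the odds ratio was 0.918 (0.746 to 1.12), and among peaks wider than 100 bp it was 1.14 (0.882 to 1.45). Over all autosomal peaks it was 2.23 (1.73 to 2.84) at ends of 1 Mb and 1.17 (1.05 to 1.31) at ends of 10 Mb.

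The density before induction climbed steeply in the outermost 100 kb. There, 43 peaks gave 11.0 per Mb before induction (exact Poisson 95% interval 7.98 to 14.9), which was 13.8 times the density of the rest. With peaks within 10 kb of each other counted as 1, it was 6.92 per Mb before and 11.0 per Mb after induction. The 49 peaks of the same sequence after induction gave 12.6 per Mb (9.29 to 16.6), 3.33 times that of the rest. Between 0.1 and 0.5 Mb the density fell to 1.92 per Mb before (30 peaks) and 4.94 per Mb after induction (77 peaks). From 1 to 2 Mb it was 1.92 and 5.67 per Mb, and from 3 to 5 Mb it was 1.27 and 5.95 per Mb. Beyond the limit of 5 Mb it was 0.985 and 5.00 per Mb from 5 to 10 Mb and 0.765 and 3.38 per Mb at over 40 Mb. After induction, the density did not fall steadily with distance: it was lowest within the near-end zone at 0.5 to 1 Mb, at 4.41 per Mb (3.53 to 5.45), and reached 6.36 per Mb (5.59 to 7.20) at 2 to 3 Mb.

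**Figure D1:**
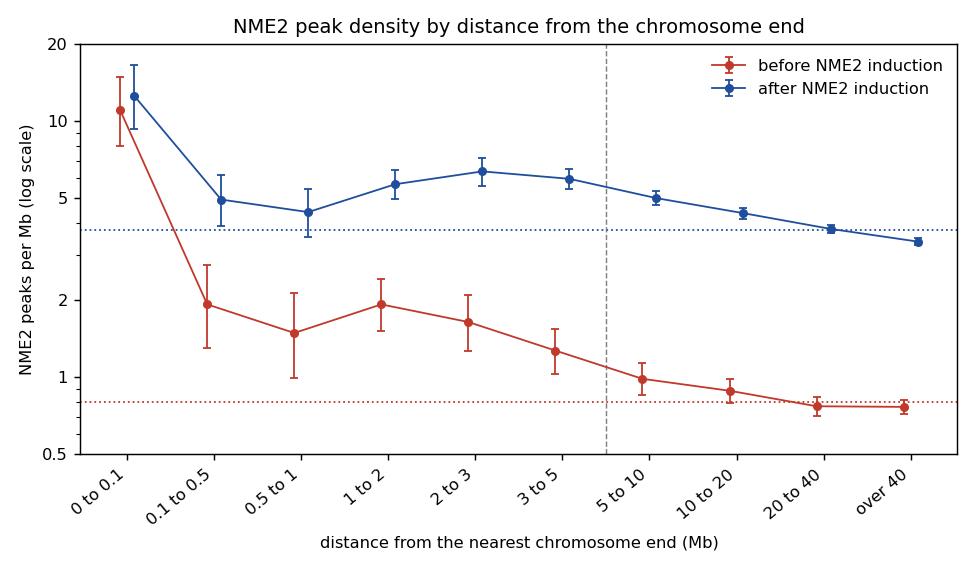
NME2 peaks per Mb (vertical axis, log scale) in bins of distance from the nearest included chromosome end in Mb (horizontal axis), before (red) and after (blue) inducing NME2. Points are densities over 39 ends, bars are exact Poisson 95% intervals, dotted lines are the densities of the rest of the chromosomes and the dashed line marks 5 Mb. The lists nearly meet in the outermost 100 kb, at 11.0 and 12.6 per Mb, and are far apart elsewhere.

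The number of peaks after induction relative to before was smallest next to the end and larger further in. It was 1.14 in the outermost 100 kb, 2.57 from 0.1 to 0.5 Mb, 2.97 from 0.5 to 1 Mb, 2.95 from 1 to 2 Mb, 3.88 from 2 to 3 Mb and 4.69 from 3 to 5 Mb. In the rest of the chromosomes the bins lay between 4.42 and 5.08. With the peaks of the outermost 100 kb left out, the odds ratio of the near-end share, before over after, was 1.28 (1.11 to 1.46). For the outermost 100 kb taken alone, the odds ratio was 4.02 (2.60 to 6.19). This value counts each peak, also those within 10 kb of each other and those that set a chromosome end. It was not computed with such peaks merged or left out. This limit of 100 kb was singled out after the profile was seen.

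Many of the outermost peaks lay within 1 kb of the end as set by the rule. Of the 43 peaks before induction, 27 (62.8%) were within 1 kb of the end, as were 23 of the 49 (46.9%) after induction. They were spread over 18 ends before and 20 ends after induction, and 16 of the 27 and 13 of the 23 overlapped a peak of the other list. Since the end of a far side is by the rule the end of the last peak, 9 of the 27 and 13 of the 23 themselves set the end of their chromosome. Of the 27 and the 23 peaks, 20 and 18 were at far ends, where the distance is counted from the last peak. How far that peak lay from the end of the assembled chromosome was not measured. Without the end-setting peaks, the outermost 100 kb held 8.72 peaks per Mb before and 9.23 per Mb after induction. In the remaining 99 kb of each end, 16 peaks before and 26 after induction gave 4.14 and 6.73 per Mb. The starts of chromosomes need no such rule, since coordinates count from 1, and there 7 peaks before and 5 after induction lay in the first kilobase.

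Peaks at the outermost positions were not present at every end. The outermost 100 kb held a peak at 23 of 39 ends before and at 26 of 39 after inducing NME2, and at 15 ends in both. Starts had 17 of these peaks before and 15 after induction, and far ends had 26 and 34. These counts are partly fixed by the rule, since each of the 22 far ends holds, in 1 of the lists, the peak that sets it. Without the end-setting peaks, 17 ends had a peak before and 22 after induction, and far ends had 17 and 21 of the peaks. Of the 17 starts, which the rule does not touch, 8 had a peak before and 8 after induction. The start of chromosome 18 carried 10 of the 43 peaks before induction and 5 of the 49 after. Without chromosome 18 the density before induction was 8.92 per Mb and that after was 11.4 per Mb. The far end of chromosome 3 had 5 peaks before and 3 after induction, and the far ends of chromosomes 10 and 20 had 3 peaks each before and 2 and 1 after.

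**Figure D2:**
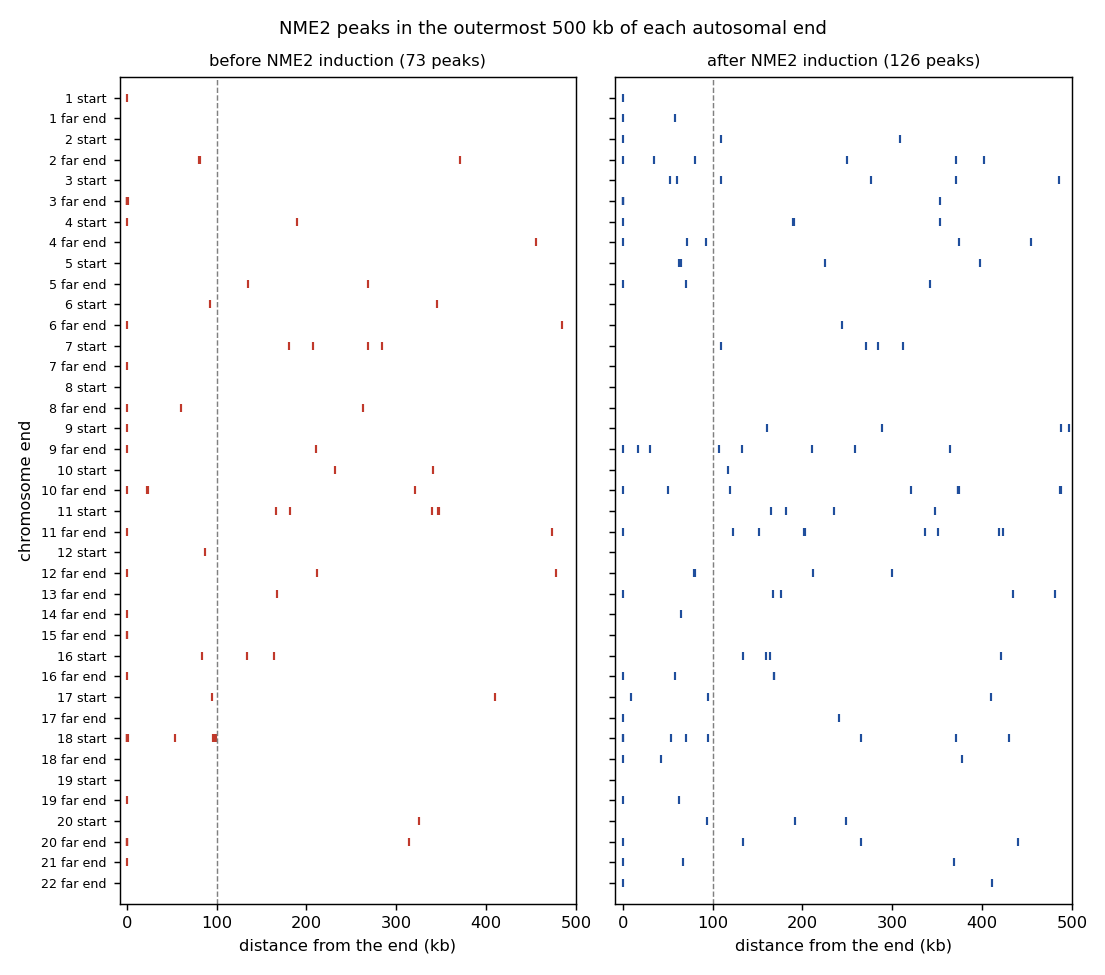
Position of each NME2 peak in the outermost 500 kb of the 39 ends, as distance from the end in kb (horizontal axis), with 1 row per end, before (left, red) and after (right, blue) inducing NME2. Each tick is a peak and the dashed line marks 100 kb. Ticks pile up at 0, where 27 peaks before and 23 after induction lie within 1 kb.

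At the start of chromosome 18 the peaks before induction came in 3 places. The first held 5 peaks before induction, from chr18:4-109 to chr18:1141-1168. The first 4 of these overlapped the peaks chr18:1-408 and chr18:547-651 found after induction. The second place was at chr18:53630-53658 before and chr18:53745-53934 after induction, close to each other without overlap. The third held 4 peaks before induction, from chr18:95488-95552 to chr18:99123-99151, and after induction it held chr18:95150-95178, which overlapped none of them. The list after induction had a further peak at chr18:70750-71295. At the far end of chromosome 3, all 5 peaks before induction fell within 0.917 kb, at chr3:199384329-199385245, and 4 of them overlapped a peak found after induction. One peak there, chr3:199384963-199384991, had the same coordinates in both lists.

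Chromosome ends differed in how many peaks they held. Before induction, the number per end ran from 1 to 16, with a median of 8 and quartiles of 7 and 10.5. After induction it ran from 13 to 49, with a median of 27 and quartiles of 22 and 36.5. No end was without a peak in either list. All 39 ends had more peaks after induction, by a factor from 1.4 to 17 with a median of 3.56. The factor of 17 came from the far end of chromosome 1, with 1 peak before and 17 after induction. The smallest factor, 1.4, was at the start of chromosome 11, with 15 and 21.

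Before induction the most peaks were at the far end of chromosome 8, with 16, followed by the start of chromosome 11 and the far ends of chromosomes 2 and 21, with 15 each. After induction the most were at the far end of chromosome 2, with 49, followed by the far ends of chromosomes 10 and 21, with 45 each. The far ends of chromosomes 2 and 21 thus led in both lists, whereas the far end of chromosome 8 had 27 peaks after induction, at the median of all ends. The share of all near-end peaks differed most towards the list before induction at the start of chromosome 11 (4.41% against 1.83%), the far end of chromosome 8 (4.71% against 2.36%) and the far end of chromosome 3 (4.12% against 1.92%). It differed most towards the list after induction at the start of chromosome 5 (2.06% against 3.84%), the far end of chromosome 9 (2.06% against 3.58%) and the start of chromosome 6 (1.18% against 2.45%). These ends were chosen for their differences, so that the values are a description.

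**Figure D3:**
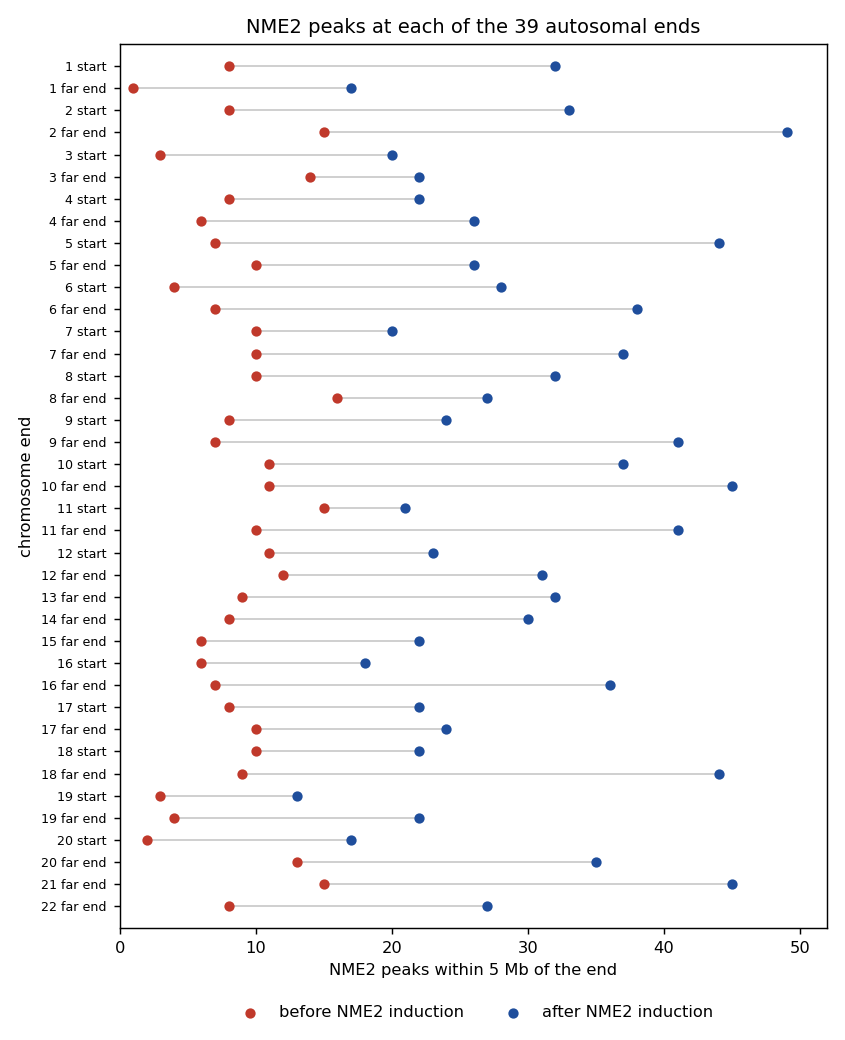
Number of NME2 peaks within 5 Mb (horizontal axis) at each of the 39 autosomal ends (vertical axis), before (red) and after (blue) inducing NME2, with a grey line between the points of an end. The counts run from 1 to 16 before and from 13 to 49 after induction, and every end has more peaks after induction.

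The peak closest to the end lay far apart in the lists at some of these ends and close together at others. On chromosome 8 the last peak before induction was chr8:146200705-146200733, 29 bp wide, while the last after induction was chr8:144929538-144929566, 1271 kb further in. At the start of chromosome 5 the order was the reverse, with the first peak before induction at chr5:1785827-1785876 and the first after induction at chr5:62912-64557, which at 1646 bp was the widest near-end peak of either list. The start of chromosome 6 had its first peak at chr6:92775-93064 before and at chr6:560110-560138 after induction. At the start of chromosome 11 both lists began at the same site, with chr11:165688-165715 before induction inside chr11:165260-165978 after it. The far ends of chromosomes 9 and 10 also shared their last site, with peaks of 28 and 29 bp before induction lying inside peaks of 201 and 451 bp after it. On chromosome 21 the last peaks, chr21:46944161-46944188 before and chr21:46944337-46944364 after induction, were each 28 bp wide and did not overlap.

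The split of near-end peaks between starts and far ends was compared between the lists. On the 17 autosomes with both ends, 44.9% of near-end peaks before induction (132 of 294) and 43.3% after induction (428 of 989) were at the start, which is the short arm side. The odds ratio was 1.07 (0.814 to 1.40).

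By an overlap of any length, near-end peaks were more often found in the other list than peaks of the rest. Sharing required 1 bp or more in common with any peak of the opposite list. Before induction, 27.9% of near-end peaks (95 of 340) and 20.3% of the rest were shared, an odds ratio of 1.52 (1.16 to 1.98), with an adjusted p of 0.00314 by two-sided Fisher's exact test with Benjamini-Hochberg adjustment over 6 tests, whose units are peaks of 1 list. After induction, the shares were 7.77% (89 of 1145) and 4.29%, an odds ratio of 1.88 (1.46 to 2.39), with an adjusted p of 2.49e-06 by the same exact test. Both tests rest on the same overlapping pairs and are not independent of each other. The direction depended on the definition of sharing: with a common stretch of 50% or more of each peak, the odds ratio was 0.513 before and 0.738 after induction. Fisher's exact test no longer passed 0.05 among peaks of at most 29 bp (odds ratio 1.44 before, p = 0.0556, and 1.35 after induction, p = 0.180) or among wide peaks before induction (1.39, p = 0.202). At ends of 1 Mb the odds ratio after induction was 3.81. With 1 Mb beside the longest stretch without peaks left out of the rest, the odds ratio before induction was 1.33 (1.02 to 1.74). The value after induction was then 1.88. Without the outermost 100 kb, the odds ratio was 1.35 (1.00 to 1.80) before and 1.61 after induction. Shared peaks lay at 31 of the 39 ends. Their near-end density was 3.0 times that of the rest before (2.37 to 3.75) and 2.82 times after induction (2.22 to 3.55), against 1.97 and 1.5 for peaks in 1 list only.

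Sharing was highest in the outermost 100 kb, where 44.2% of the peaks before induction (19 of 43, Wilson interval 30.4 to 58.9) and 30.6% of those after induction (15 of 49, 19.5 to 44.5) overlapped the other list. Of the 19, 4 were at the start of chromosome 18 and 4 at the far end of chromosome 3. Sharing was 40% before (24.6 to 57.7) and 15.6% after induction from 0.1 to 0.5 Mb, and 17.2% and 5.81% from 0.5 to 1 Mb. A second rise was found at 2 to 3 Mb, to 40.6% (26 of 64, 29.5 to 52.9) before and 9.68% (24 of 248) after induction. Before induction, the intervals at 0.1 to 0.5 Mb and at 2 to 3 Mb overlapped that of the outermost 100 kb. The 26 shared peaks before induction were spread over 16 ends, with at most 3 at any of them. The near-end bins from 1 to 2 Mb and from 3 to 5 Mb, with 18.7% and 19.2% shared before induction, were below the 20.3% of the rest. Sharing was also not limited to the near-end zone, since the bin from 5 to 10 Mb had 31.8% shared before induction (61 of 192, 25.6 to 38.7), above the near-end value of 27.9%, and 6.26% after it. At over 40 Mb, 18.2% and 4.09% were shared.

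Shared peaks differed in shape between lists near the ends. In the 95 overlapping pairs near ends, the median width was 35 bp before and 212 bp after inducing NME2, and the peak after induction was the wider one in 68.4% of pairs. In the 421 pairs of the rest, the medians were 47 and 49 bp, and the peak after induction was wider in 47.3%. The peak before induction lay wholly inside its partner in 56 of the 95 near-end pairs. When the common stretch had to cover 50% or more of each peak, 12 near-end pairs (12.6%) and 138 of the rest (32.8%) were left, and the odds ratio of sharing near ends was 0.513 before (p = 0.0284 by Fisher's exact test) and 0.738 after induction (p = 0.419 by the same exact test).

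Of the shared peaks before induction, the 5 closest to an end lay on chromosomes 9, 16, 18, 19 and 20. In the list after induction, 6 shared peaks lay at the very end, on chromosomes 1, 3, 9, 10, 11 and 18. The distance of 0 was fixed by the rule for the peaks that set a chromosome end, which were those on chromosomes 16, 19 and 20 before induction and those on chromosomes 3, 9, 10 and 11 after it. At the far end of chromosome 16, chr16:88676540-88676593 before induction overlapped chr16:88676430-88676542 after it by 3 bases. On chromosome 19 the peaks were chr19:63789901-63789929 and chr19:63789878-63789915, of 29 and 38 bp. A narrow peak before induction met a wide one after it on chromosome 20, with chr20:62389232-62389260 (29 bp) and chr20:62388906-62389246 (341 bp), and on chromosome 9, with chr9:140174155-140174182 (28 bp) inside chr9:140174024-140174224 (201 bp). At the start of chromosome 18, chr18:4-109 (106 bp) lay inside chr18:1-408 (408 bp).

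Near-end peaks were wider than those of the rest after induction. Peaks wider than 100 bp were 53.1% of near-end peaks (608 of 1145) and 46.1% of the rest after induction, an odds ratio of 1.32 (1.17 to 1.5), with an adjusted p of 1.72e-05 by Fisher's exact test with Benjamini-Hochberg adjustment. Before induction the shares were 25.6% (87 of 340) and 27.4%, an odds ratio of 0.913 (0.694 to 1.19), with an adjusted p of 0.614 by the same exact test. The ratio of these odds ratios, after over before, was 1.45 (1.08 to 1.93). Median widths near ends and in the rest were 29 and 34 bp before induction and 113 and 89 bp after it. In the outermost 100 kb, 63.3% of the peaks after induction were wider than 100 bp, with a median of 196 bp, whereas the median before induction stayed at 29 bp. From 0.1 to 0.5 Mb the values after induction were 46.8% and 86 bp, close to those of the rest. The near-end bins further in had 51.1% to 55.2% wide peaks after induction, and the bin from 5 to 10 Mb, outside the set, had 49.3%.

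The narrowest and the widest peaks differed in opposite directions between the lists in their near-end excess. Among peaks of at most 29 bp, near the length of a clipped read of 24 bp, density near ends was 2.27 times that of the rest before induction (1.92 to 2.67) and 1.24 times after it (1.12 to 1.38). Among peaks of over 200 bp it was 1.35 times before (0.769 to 2.23, from 17 near-end peaks) and 2.26 times after induction (2.02 to 2.52, from 376). The classes between had ratios of 2.14 and 1.83 (30 to 100 bp) and 2.32 and 1.35 (over 100 and up to 200 bp) before and after induction. Narrow peaks of at most 29 bp made up 51.2% of near-end peaks before and 34.5% after induction, against 49.1% and 43.3% in the rest. The running number also split the lists in opposite directions. Before induction, the ratio was 1.63 in the first part of the list and 2.76 in the second part, split at the median number, and after induction it was 1.77 and 1.35.

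**Figure D4:**
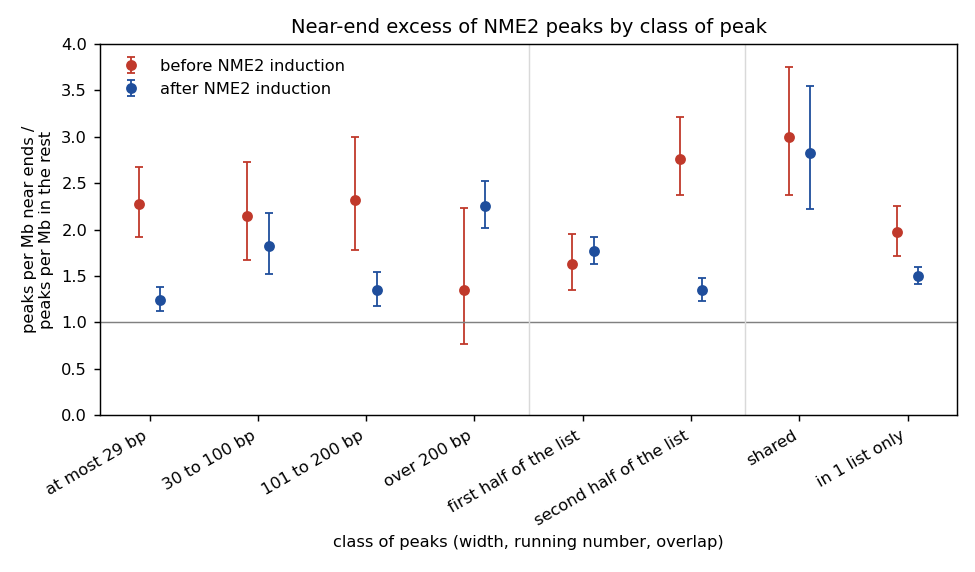
Ratio of NME2 peak density near ends to that of the rest (vertical axis) for classes of peaks (horizontal axis) by width, by place in the list and by overlap with the other list, before (red) and after (blue) inducing NME2. Bars are exact 95% intervals and the grey line marks equal density. The ratio is higher before induction at 29 bp or less (2.27 against 1.24) and higher after induction at over 200 bp (2.26 against 1.35).

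By running number, near-end peaks stood late in the list before induction, at a median percentile of 60.7 against 48.6 for the rest, and early in the list after induction, at 43.9 against 50.4. The contrast was larger for the outermost 100 kb, with medians of 74.9 before and 19.6 after induction. What the number ranks is not given in the sources, so these values only place the peaks in the lists as deposited.

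**Figure D5:**
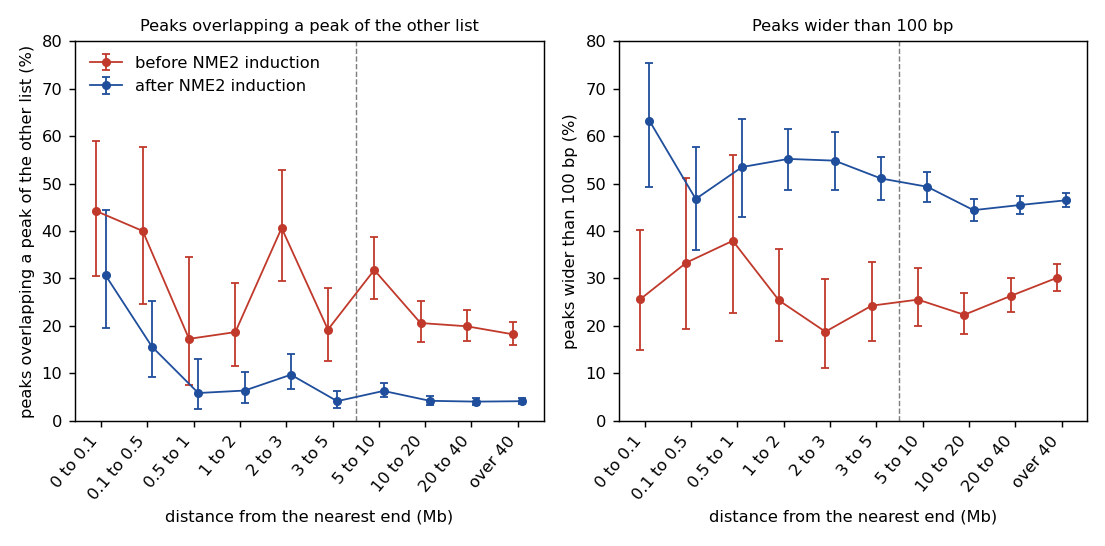
Percentage of NME2 peaks that overlap a peak of the other list (left) and that are wider than 100 bp (right), vertical axes, by distance from the nearest chromosome end in Mb (horizontal axes), before (red) and after (blue) inducing NME2. Bars are Wilson 95% intervals and the dashed line marks 5 Mb. Sharing is highest in the outermost 100 kb, at 44.2% and 30.6%, and wide peaks after induction make up 63.3% there.

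The spacing of peaks also differed near ends, a measure that depends on density and so is not a separate result. Spacing beyond that given by density was not tested. The median distance to the nearest peak of the same list was 156 kb near ends and 366 kb in the rest before induction, and 42.5 and 80.1 kb after it. A neighbour within 10 kb was present for 16.2% of near-end peaks and 13% of the rest before induction, and for 25.9% and 11.9% after it. Without the outermost 100 kb, the near-end values were 10.8% before induction, below that of the rest, and 26.1% after it. In the outermost 100 kb, 53.5% of the peaks before and 22.4% of those after induction had such a neighbour, and the median distance to the nearest peak over all peaks there was 1.06 kb before and 49.6 kb after induction. Counting peaks within 10 kb of each other as 1, the 340 and 1145 near-end peaks came to 307 and 981, with at most 5 peaks together in either list. In the rest of the chromosomes the largest such group had 42 peaks before and 6 after induction.

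In the near-end zone before induction, the densest 100 kb window was the start of chromosome 18, with 10 peaks. The far end of chromosome 3 followed, with 5. Next was a window 3000 to 3100 kb from the far end of chromosome 3. It held 4 peaks between chr3:196311430 and 196330019, none of them shared. Of the 286 near-end windows with a peak before induction, 249 held 1 peak. After induction, the densest near-end window was 4800 to 4900 kb from the far end of chromosome 6. There, 8 peaks lay at chr6:165952568-166035325 and the list before induction had none. The next were 6 peaks at chr18:74467179-74525530, where 2 peaks were found before induction, and 6 at chr2:4431221-4491877, where none were. Among near-end windows, the densest before induction thus included the outermost sequence of 2 chromosomes. Those after induction lay 1500 kb or more from an end. Windows in the rest of the chromosomes are not part of this ranking.

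The widest near-end peaks before induction were chr2:2626832-2627337 (506 bp), chr17:73694573-73694896 (324 bp) and chr22:47094673-47094983 (311 bp), and none of them was shared. After induction, the peak of 1646 bp on chromosome 5 was followed by chr2:242455240-242456569 (1330 bp), which lay 80.4 kb from the end and was shared, and by chr6:168741616-168742637 (1022 bp). At the limit of the set, the innermost member before induction lay 4992.78 kb from the start of chromosome 7 and the nearest peak outside it lay 5048.12 kb from the start of chromosome 3. After induction these were 4986.73 kb from the far end of chromosome 13 and 5012.15 kb from the far end of chromosome 7.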

How the data were processed

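Reads were clipped by the authors to 24 bp and placed on hg18 with MAQ. By the paper's description, peaks were found in CisGenome relative to IgG at a false discovery rate of 10%, and boundary refinement and the filter on single-strand peaks were applied. The deposited lists, 1 for each condition, hold a running number, chromosome, start and end, and how the replicate libraries were combined is not given in the sources used here. The lists hold 2541 peaks before and 11545 after induction, in both cases more than the paper reports. Some running numbers exceed the number of peaks in their list. The sources do not explain either, so the lists may not be the final peak set of the paper. The supplement of the paper states that only reads with a unique place in the genome were kept. Reads that fit several near-identical sites, as in subtelomeric copies, can be lost at this step, which was not tested.

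Members were selected by position alone, with pandas 2.3.3 and scipy 1.17.1 in python 3.11.15 (numpy 2.4.6), and figures were drawn with matplotlib 3.10.9. The members and the ends, peaks and classes described were chosen with earlier results of these data known. Named ends were the 3 with the most peaks per list and the 3 with the largest share difference in each direction. Named peaks were the outermost at those ends, the 3 widest per list and those at the limit of 5 Mb. Also named were the 5 shared peaks before induction closest to an end, with their partners. The 3 densest near-end windows of 100 kb per list were named as well. The peaks at the start of chromosome 18 and the far end of chromosome 3, and the far ends of chromosomes 1, 10 and 20 in the outermost 100 kb or for their ratios, were named after their values were seen.

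Numbers of peaks near ends and in the rest were compared within each list with two-sided Fisher's exact tests and conditional odds ratios with exact 95% intervals, adjusted by Benjamini-Hochberg over 6 tests, of which 2 were between the lists. Between lists, odds ratios and intervals are given without p-values, because there is 1 list per condition. The p-values of alternatives are unadjusted. Density ratios had exact conditional intervals, and ratios of odds ratios had normal intervals on the log scale. Density was peaks over length, with the rest measured from position 1 or, on chromosomes 13, 14, 15, 21 and 22, from the first peak. The code was tested on simulated data. No peak sequence or gene annotation of hg18 was used here.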

Additional observations from a re-analysis of the deposited data

Results flagged for a closer look

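The share of near-end peaks in the autosomal list was higher before than after inducing NME2, with an odds ratio of 1.40, which takes peaks of 1 list per condition as units and has no replicate test. The relation of width to chromosome ends was also unlike in the lists, with a ratio of the odds ratios for peaks wider than 100 bp, after over before, of 1.45, under the same limit. Chromosome X, which lay outside the rule, had 12 of its 90 peaks near its ends before induction and 44 of its 558 after it. Its near-end density was 2.23 times that of the rest of the chromosome before (exact interval 1.10 to 4.12) and 1.24 times after induction (0.890 to 1.69).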

How the results depend on the processing

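No paired analysis was possible because the lists hold no values per replicate, so chromosomes, not replicates, were left out in turn. The 10 results were recomputed in 301 alternatives, of which 279 kept direction and side of the threshold or, for values without a test, stayed within the 95% interval of the value reported. Of the 301, 215 only left out 1 chromosome, a small change, and 214 of these are among the 279. Nearly all the changes thus came from the smaller number of other alternatives. Tests within a list were Fisher's exact tests. The odds ratio of the near-end share, before over after, was 1.14 among peaks wider than 100 bp and turned to 0.918 in the leading 50% of both lists by running number, with intervals that include 1. It was 2.23, 1.91, 1.67 and 1.17 for ends of 1, 2, 3 and 10 Mb, and between 1.35 and 1.44 without each chromosome. The density ratio before induction was 3.11, 2.75, 2.53 and 1.74 for ends of 1, 2, 3 and 10 Mb. After induction it was 1.40 and 1.43 for ends of 1 and 2 Mb, and 1.42 with peaks within 10 kb counted as 1. For sharing, the odds ratio at ends of 1, 2, 3 and 10 Mb was 2.08, 1.5, 1.81 and 1.75 before induction and 3.81, 2.57, 2.56 and 1.79 after it. Before induction it missed the threshold among wide peaks (1.39) and among peaks of at most 29 bp (1.44), and turned to 0.513, past the threshold, with 50% overlap of both peaks. After induction it missed the threshold among peaks of at most 29 bp (1.35) and turned to 0.738, not past it, with 50% overlap. For width after induction, the odds ratio missed the threshold at ends of 1 Mb (1.30). Before induction it turned to 1.24 and 1.10 at ends of 1 and 2 Mb, not past the threshold, and was 0.601, past it, with a limit of 200 bp. For starts against far ends, it was 0.985 at ends of 10 Mb, and between 0.983 (without chromosome 11) and 1.15 without each chromosome. In the outermost 100 kb, whose alternatives were added after seeing the data, the density was 6.92 per Mb before induction with peaks within 10 kb counted as 1, and 9.23 per Mb after induction without the end-setting peaks. The causes of these changes were not tested. The sequence of the peaks was not analysed here, and the read depth behind each peak is unknown.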
